A study of Phalaenopsis equestris with 4 samples.

Results

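The heat shock protein 70 (HSP70) chaperones of the butterfly orchid Phalaenopsis equestris were followed across root, stem, leaf and flower. The members are the 8 gene models that the authors' heat shock table names HSP70, out of 29 heat shock models in that table. Each was matched by the authors to its own contig among 221878 contigs assembled de novo from the same reads. Total RNA of each tissue, from plants labelled as 3 years old, gave 1 library per tissue, and no treatment is named. With 1 library per tissue there is no replicate check and no p-value, so each value describes a library, and its spread between plants is unknown. In such bulk samples, more cells of a type and more RNA per cell cannot be told apart. The tissue labels were checked against no marker genes, because the files name no contigs other than those in the heat shock table and a table of R genes.

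HSP70 proteins bind exposed hydrophobic stretches of unfolded or newly made proteins and release them in a cycle driven by ATP. J-domain proteins deliver clients and stimulate ATP hydrolysis, and nucleotide exchange factors reset the cycle. Plants carry HSP70s in the cytosol, the endoplasmic reticulum, mitochondria and chloroplasts. Some are made constitutively and others are induced by heat. HSP90 takes over part of the clients of cytosolic HSP70, and the small heat shock proteins of the HSP20 family hold unfolded proteins until HSP70 refolds them. The tables used here give no compartment or subfamily for the 8 members, so the roles below are those of the family, and the members are called by their identifiers.

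Expression is given in FPKM, by its usual definition fragments scaled to transcript length and sequencing depth, which allows levels of different contigs to be set side by side within a library. The 4 libraries do not share a scale. Summed FPKM was 895717 in root, 684575 in stem and 695751 in flower but 7179830 in leaf, where the 13 contigs of one assembly component, c157498, held 75.9% of the sum. Levels in leaf against the other tissues therefore depend on how the libraries are scaled, and are given under 4 scalings where that matters. These are the values as deposited, median-of-ratios factors, which set the median contig expressed in all tissues equal, all sums of FPKM set equal, and the sums without c157498 set equal. Shares and ratios within a library do not depend on scaling between libraries.

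One member dominated the family in every tissue. HSP70_PEQU_18080 stood at 5644 FPKM in root and 3516 in stem, with 14278 in leaf and 2829 in flower. It was the member with the highest level in each library, and its order of tissues as deposited was leaf, root, stem, flower. HSP70_PEQU_21700 was the next highest member in all 4 libraries, at 154 FPKM in root and 367 in stem, with 794 in leaf and 682 in flower. HSP70_PEQU_02517 stood at 62.9 FPKM in root and 146 in stem, with 126 in leaf and 372 in flower. Flower was 2.55 times the next tissue for this member, which was stem. HSP70_PEQU_03033 stood at 86.8 FPKM in root and 118 in stem, with 312 in leaf and 169 in flower. It exceeded HSP70_PEQU_02517 in root and leaf and was below it in stem and flower.

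The 4 remaining members were lower and closer together. HSP70_PEQU_38972 stood at 42.8 FPKM in root and 49.6 in stem, with 86.4 in leaf and 64.3 in flower, and was 5th in the family in every tissue. HSP70_PEQU_15134 stood at 23.7 FPKM in root and 31.4 in stem, with 47.4 in leaf and 52.8 in flower. HSP70_PEQU_17275 stood at 23.8 FPKM in root and 47.6 in stem, with 39.4 in leaf and 53.0 in flower. The ratio of HSP70_PEQU_15134 to HSP70_PEQU_17275 was 0.995 in root and 0.998 in flower, against 0.66 in stem and 1.20 in leaf. HSP70_PEQU_36873 stood at 38.6 FPKM in root and 38.2 in stem, with 31.6 in leaf and 42.7 in flower. Its highest and lowest tissues were 1.35-fold apart in FPKM, while those of HSP70_PEQU_02517 were 5.92-fold apart. On the log2(FPKM + 1) scale the range of HSP70_PEQU_36873 was the narrowest of the 8 as deposited, at 0.42, but not under the other scalings, with 1.22 under median-of-ratios factors, 1.70 with sums without c157498 set equal and 3.47 with all sums set equal. HSP70_PEQU_02517 had the widest range under all 4 scalings.

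**Figure D1:**
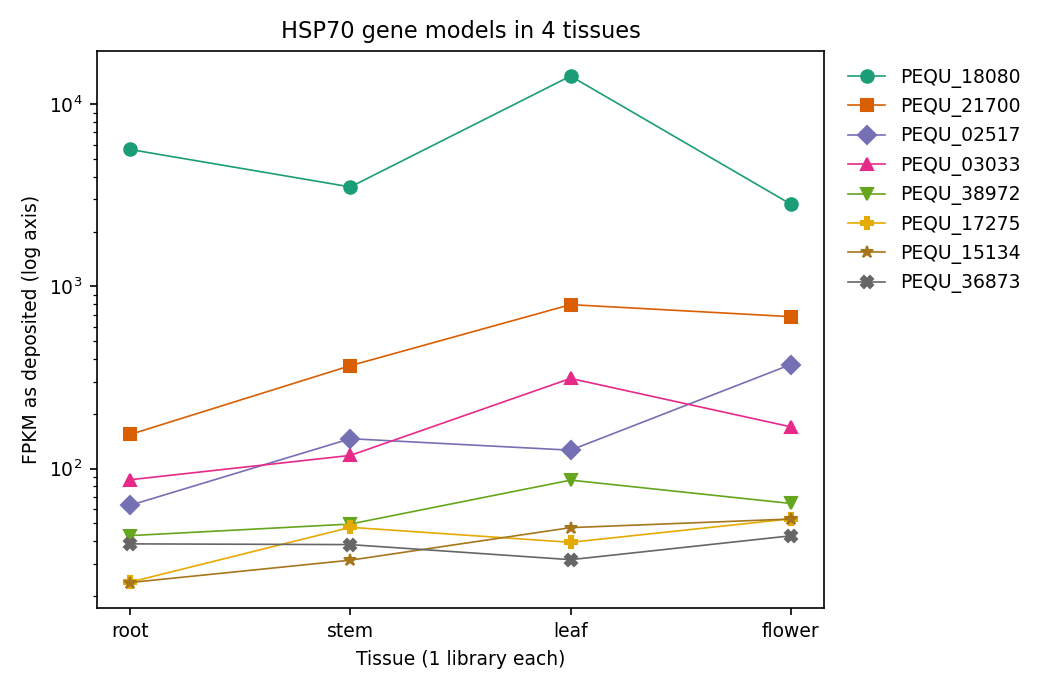
FPKM as deposited (log axis) of the 8 HSP70 gene models in root, stem, leaf and flower, 1 point per library; lines only join the points of a member. HSP70_PEQU_18080 lies at 2829 FPKM or more in all tissues, and the other 7 members lie between 23.7 and 794 FPKM.

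As deposited, all 8 members were at 23.7 FPKM or more in each library. On that scale 2680 of 86757 contigs averaging 1 FPKM or more (3.09%) reached 20 FPKM in all 4 tissues. This is 36.6% of those averaging 20 FPKM or more. Members at 20 or more in all 4 tissues numbered 8 with median-of-ratios factors. They numbered 6 with the sums without c157498 set equal and 3 with all sums set equal. Shares of contigs under these scalings are not given. By rank within a library, HSP70_PEQU_21700 was 62nd of all contigs in flower, 89th in stem, 206th in leaf and 375th in root. HSP70_PEQU_02517 was 159th in flower, 326th in stem, 1430th in root and 1643rd in leaf. HSP70_PEQU_03033 was 456th in stem, 486th in flower, 529th in leaf and 905th in root. All 3 thus ranked nearer the top in stem and flower than in root, as did the other 4 below HSP70_PEQU_18080. Ranks are not on a like footing between libraries. Contigs at 1 FPKM or more numbered 117027 in root, against 89271 in stem and 40768 in flower. Ranks of the other 4 below HSP70_PEQU_18080 ran from 1607 to 7347, and HSP70_PEQU_36873 had the lowest rank of them in leaf, at 7347. Taken as a percentage of the contigs above 0 in a library, the rank of HSP70_PEQU_36873 was 1.61% in root and 2.35% in flower. That of HSP70_PEQU_38972 was 1.39% in root and 1.46% in flower. On that measure both were thus further from the top in flower than in root, while the rest below HSP70_PEQU_18080 were nearer to it.

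The share of the family sum held by HSP70_PEQU_18080 differed between tissues. It was 92.9% in root and 90.9% in leaf, with 81.5% in stem and 66.3% in flower. HSP70_PEQU_21700 held 2.53% of the sum in root and 5.05% in leaf, with 8.51% in stem and 16.0% in flower. HSP70_PEQU_02517 held 1.03% in root and 0.803% in leaf, with 3.38% in stem and 8.73% in flower. The remaining 5 members held at most 3.97% each in any tissue. The effective number of members, the inverse of the sum of squared shares, was 1.16 in root and 1.21 in leaf, with 1.48 in stem and 2.10 in flower. HSP70 transcripts were thus most evenly spread over members in the flower library and least in the root library.

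The 7 members below HSP70_PEQU_18080 also differed in make-up. Of their sum, HSP70_PEQU_21700 took 35.6% in root and 46.0% in stem, with 55.2% in leaf and 47.5% in flower. HSP70_PEQU_02517 took 14.5% in root and 18.3% in stem, with 8.77% in leaf and 25.9% in flower. HSP70_PEQU_03033 took 20.1% in root and 14.8% in stem, with 21.7% in leaf and 11.8% in flower. The ratio of HSP70_PEQU_02517 to HSP70_PEQU_03033 ran from 0.404 in leaf and 0.724 in root to 1.24 in stem and 2.20 in flower. HSP70_PEQU_36873 was 6th of the 8 in root and 8th in leaf and flower, and its share of the 7 was 8.92% in root against 2.97% in flower.

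**Figure D2:**
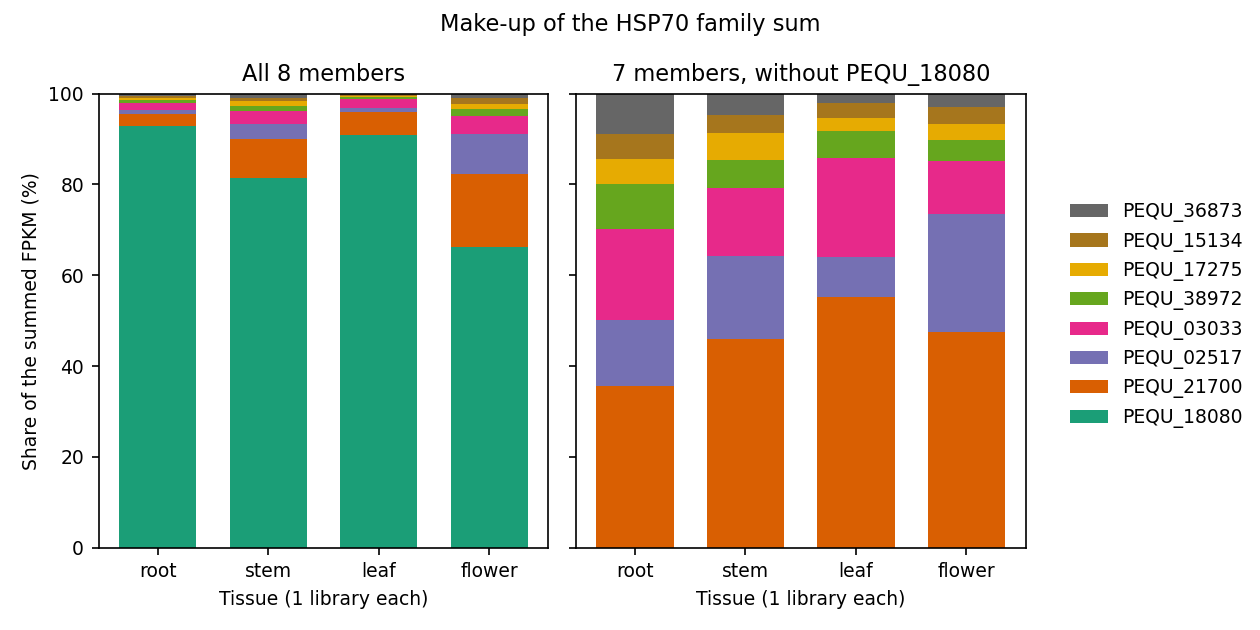
Share of the summed FPKM (%) held by each HSP70 member in each tissue, for all 8 members (left) and for the 7 members other than HSP70_PEQU_18080 (right); 1 library per tissue. HSP70_PEQU_18080 takes 92.9% in root and 66.3% in flower, and HSP70_PEQU_21700 takes 35.6% to 55.2% of the rest.

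The family sum and the 7 lesser members went opposite ways between root and the stem and flower libraries. The sum of all 8 was 6077 FPKM in root and 4314 in stem, with 15715 in leaf and 4266 in flower. Without HSP70_PEQU_18080 it was 432 FPKM in root and 798 in stem, with 1438 in leaf and 1437 in flower. As deposited, flower was thus 0.702 times root for all 8 members and 3.32 times root for the 7. From root to flower HSP70_PEQU_18080 differed by -2815 FPKM, while the 7 together differed by 1004 FPKM. HSP70_PEQU_21700 made up 52.6% of the latter and HSP70_PEQU_02517 made up 30.8%. The direction of the family sum among these tissues was thus set by 1 contig. The size of the fall for all 8 members depended on scaling. In log2 units, flower over root was -0.51 as deposited and -0.55 with median-of-ratios factors. It was only -0.15 with all sums set equal and -0.13 with the sums without c157498 set equal. Stem over root was -0.49 as deposited and -0.11 with either setting of equal sums.

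Of the tissues whose summed FPKM was alike, flower stood highest for most members. In 6 of 8 members flower exceeded stem and stem exceeded root, and with either setting of equal sums in 7. As deposited, 14.1% of contigs averaging 1 FPKM or more met this order, and 36.1% of the 7320 contigs averaging 20 FPKM or more. The latter are closer to the members in average level. That average includes leaf, however, and only 36.6% of them reached 20 FPKM in all 4 tissues. Below, such pairs of shares are given with the cut of 1 FPKM first. HSP70_PEQU_18080 had the reverse order, root above stem above flower, found in 45.3% and 23.9% of these contigs. HSP70_PEQU_36873 was highest in flower with root and stem at nearly the same level. With leaf left out, 7 of 8 members were highest in flower, against 19.4% and 48.5% of contigs. As many as 7 members were higher in flower than in root, against 27.1% and 56.9% of contigs, and 7 were higher in flower than in stem, against 24.6% and 59.4%. These counts of members were 7 under each of the 4 scalings tried. All shares of contigs in this paragraph are for the values as deposited, and the background moves with scaling too. The median flower minus root, on the log2(FPKM + 1) scale, of contigs averaging 20 FPKM or more was 0.28 as deposited. It was 0.25 with median-of-ratios factors, 0.62 with all sums set equal and 0.64 with the sums without c157498 set equal.

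Sizes of these differences were read on the log2(FPKM + 1) scale with a threshold of 2-fold, a rule of size and not a test. Between root and flower, 4 of 8 members passed it, all higher in flower, where 12.6% of contigs averaging 1 FPKM or more and 33.1% of those averaging 20 FPKM or more did so. They were HSP70_PEQU_02517 (a difference of 2.55), HSP70_PEQU_21700 (2.14), HSP70_PEQU_15134 (1.13) and HSP70_PEQU_17275 (1.12). HSP70_PEQU_03033 lay just below, at 0.96, and HSP70_PEQU_18080 had a difference of -0.996, just short of the threshold in the other direction, which no member passed and 51.3% and 22.2% of contigs did. With median-of-ratios factors it passed at -1.04, and with summed FPKM set equal HSP70_PEQU_03033 became the 5th member to pass, higher in flower by 1.32. The median over the 8 members was 1.04, against -1.07 over contigs averaging 1 FPKM or more and 0.28 over those averaging 20 FPKM or more. Beside contigs averaging 20 FPKM or more, 4 of 8 members is not far from the 33.1% of the background.

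Between root and stem, HSP70_PEQU_21700 and HSP70_PEQU_02517 passed, higher in stem by 1.25 and 1.20, with 12.0% of contigs averaging 1 FPKM or more and 21.0% of those averaging 20 FPKM or more. HSP70_PEQU_17275 had a difference of 0.97. Between stem and flower only HSP70_PEQU_02517 passed, higher in flower by 1.35, with 7.04% and 19.8% of contigs. HSP70_PEQU_02517 and HSP70_PEQU_21700 were thus the members that differed most among these 3 tissues, but each difference named for these pairs lay within the 10th to 90th percentile of contigs averaging 20 FPKM or more. For root and flower that range was -2.09 to 2.90.

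**Figure D3:**
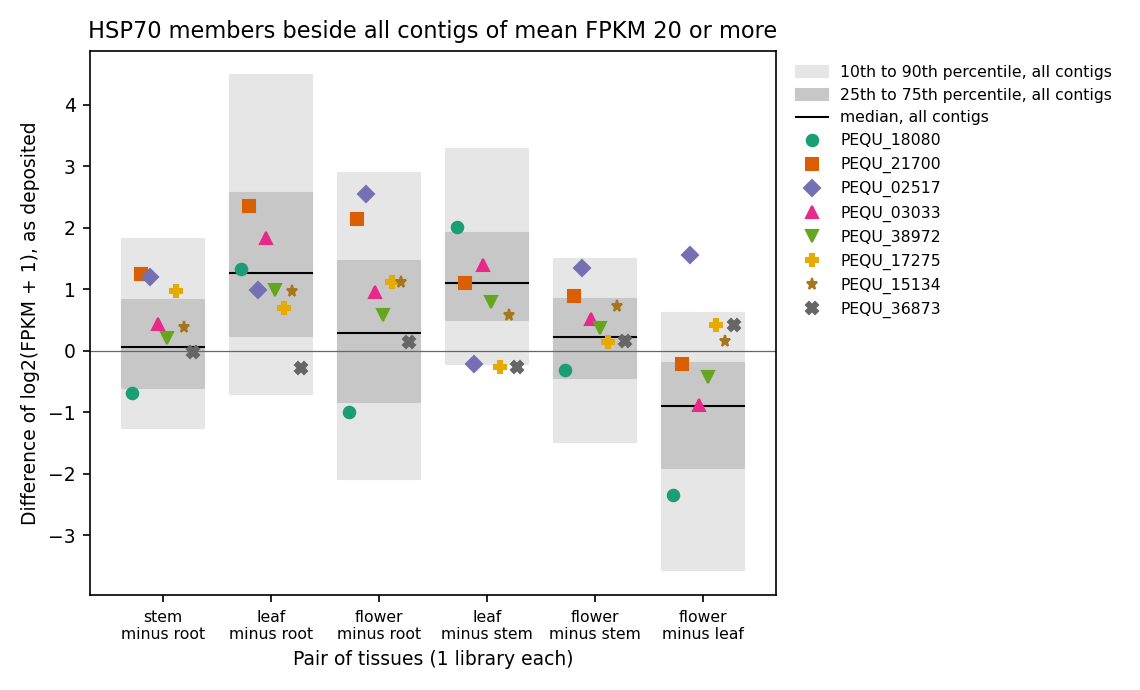
Difference of log2(FPKM + 1) between each pair of tissues for the 8 HSP70 members (coloured points), beside the median and the 25th to 75th and 10th to 90th percentiles of 7320 contigs averaging 20 FPKM or more (line and grey bands), as deposited, 1 library per tissue. Outside the bands lie HSP70_PEQU_02517, above the 90th percentile for flower minus leaf, and HSP70_PEQU_17275 and HSP70_PEQU_36873, both at -0.27 and below the 10th percentile of -0.21 for leaf minus stem.

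As deposited, leaf was highest for HSP70_PEQU_18080, HSP70_PEQU_21700, HSP70_PEQU_03033 and HSP70_PEQU_38972, 4 of 8 members. Leaf was also highest for 38.4% of contigs averaging 1 FPKM or more and 64.6% of those averaging 20 or more. Both averages include leaf, so contigs high in leaf alone can pass these cuts. Flower was highest for the other 4 members, against 8.37% and 15.7% of contigs. Against root, 3 members were at least 2-fold higher in leaf, with 28.1% and 56.8% of contigs. They were HSP70_PEQU_21700 (2.36), HSP70_PEQU_03033 (1.84) and HSP70_PEQU_18080 (1.34). HSP70_PEQU_38972, HSP70_PEQU_02517 and HSP70_PEQU_15134 stood 2.02, 2.01 and 2.001 times root in plain FPKM and missed the threshold only on the FPKM + 1 scale. Against stem, 3 members passed, with 27.3% and 54.3% of contigs. They were HSP70_PEQU_18080 (2.02), HSP70_PEQU_03033 (1.40) and HSP70_PEQU_21700 (1.11). HSP70_PEQU_17275 and HSP70_PEQU_36873 were lower in leaf than in stem, each with a difference of -0.27, which lay below the 10th percentile of -0.21 over contigs averaging 20 FPKM or more.

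As deposited, leaf and flower split the family, 4 of 8 members being higher in flower and 4 higher in leaf. HSP70_PEQU_18080 was then lower in flower than in leaf by 2.33 on the log2 scale, which 35.2% and 46.8% of contigs matched at 2-fold. Its flower minus leaf difference depended on scaling. The value became -1.51 under median-of-ratios factors, -1.01 for equal sums without c157498 and 1.03 for equal sums of all contigs, a reversal. Members higher in flower than in leaf numbered 6, 7 and 8 under these scalings in turn. The median contig averaging 20 FPKM or more moved as well, from -0.90 as deposited to -0.10, 0.37 and 2.22 in the same turn. Shares of contigs higher in flower than in leaf are not given. Neither these counts nor the split as deposited is therefore read against a background. As deposited, HSP70_PEQU_02517 was higher in flower by 1.55, where 7.25% and 6.78% of contigs passed. The difference of 1.55 was above the 90th percentile of contigs averaging 20 FPKM or more, which was 0.61. With median-of-ratios factors it was 2.37 against a 90th percentile of 1.39. With summed FPKM set equal it was 4.83 against 3.63, and with the sums without c157498 set equal it was 2.87 against 1.84. Within libraries, the ratio of HSP70_PEQU_18080 to HSP70_PEQU_21700 was 36.7 in root and 18.0 in leaf, with 9.58 in stem and 4.15 in flower.

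Under the other scalings leaf was highest for fewer members. With median-of-ratios factors 2 members were highest in leaf, HSP70_PEQU_18080 at 9263 and HSP70_PEQU_03033 at 203, the latter close to its scaled flower value of 195; 23.0% and 34.8% of contigs were highest there. With the sums without c157498 set equal only HSP70_PEQU_18080 was highest in leaf, at 6535 against 4993 in root, with 17.6% and 24.3% of contigs. With all sums set equal no member was, against 4.22% and 6.80% of contigs, and HSP70_PEQU_18080 was then highest in root, at 5014. HSP70_PEQU_36873 was lowest in leaf under all 4 scalings. All members except HSP70_PEQU_36873 and HSP70_PEQU_17275 were higher in leaf than in root under 3 of the 4, the exception being all sums set equal, where all 8 members were higher in root than in leaf, as were 83.6% and 77.9% of contigs.

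**Figure D4:**
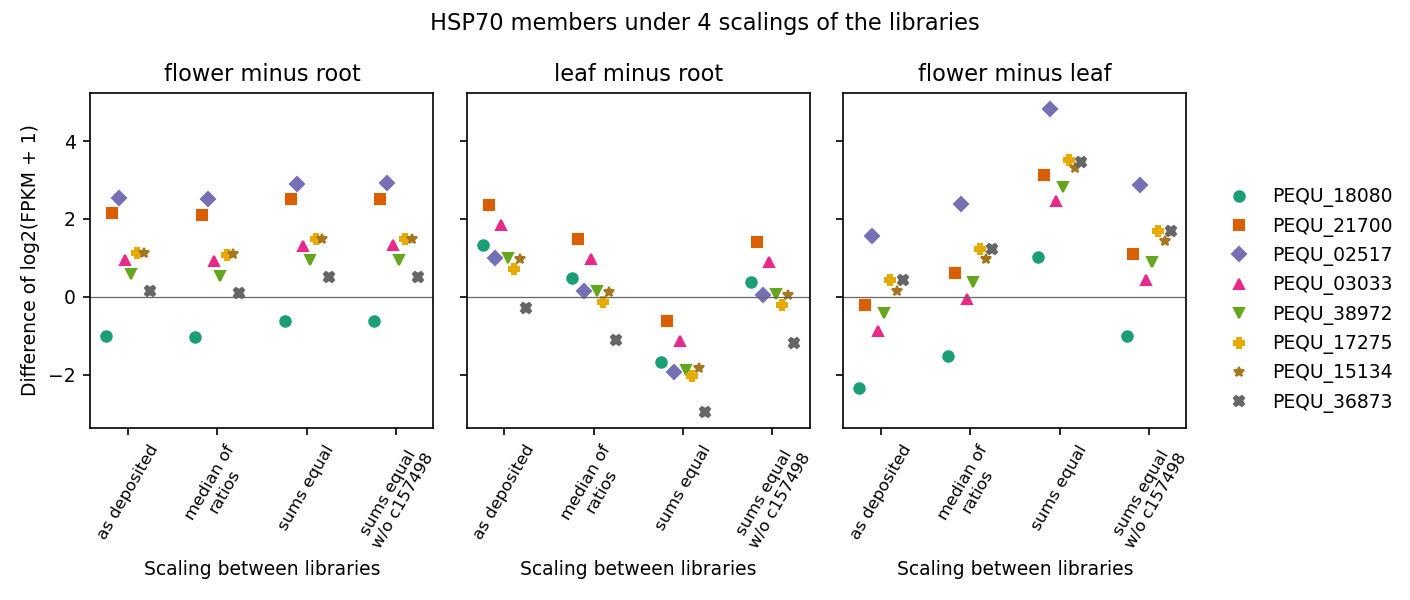
Difference of log2(FPKM + 1) for flower minus root, leaf minus root and flower minus leaf of the 8 HSP70 members under 4 scalings of the libraries (x axis), 1 library per tissue. For flower minus root 7 members lie above 0 and HSP70_PEQU_18080 lies below 0 under each scaling, while the panels with leaf shift with the scaling.

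The members were compared with each other by the Euclidean distance of log2(FPKM + 1) over the 4 tissues, each taken relative to its own mean, as deposited. This is a description over 4 libraries. The closest members were HSP70_PEQU_15134 and HSP70_PEQU_38972 at 0.46, followed by HSP70_PEQU_03033 and HSP70_PEQU_38972 at 0.61 and HSP70_PEQU_15134 and HSP70_PEQU_17275 at 0.62. HSP70_PEQU_02517 and HSP70_PEQU_18080 were furthest apart, at 3.13. Within the whole heat shock table, an HSP90 contig was the closest to 5 of the 8 members. The closer 4 of these pairs were HSP70_PEQU_15134 with HSP90_PEQU_19268 (0.36), HSP70_PEQU_38972 with HSP90_PEQU_14751 (0.35), HSP70_PEQU_21700 with HSP90_PEQU_31881 (0.46) and HSP70_PEQU_36873 with HSP90_PEQU_19561 (0.57). HSP70_PEQU_03033 was closest to HSP20_PEQU_07627 (0.20) and HSP70_PEQU_02517 to HSP20_PEQU_08607 (0.60). HSP70_PEQU_17275 was closest to HSP70_PEQU_15134. For HSP70_PEQU_18080 the nearest was HSP90_PEQU_00122 at 0.82, the widest such distance among the 8.

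Each of the 8 matched contigs was the only contig of its Trinity gene, the group that the assembler regards as isoforms, so no isoform shares were to be had. At the wider level of the assembly component, 6 members were again alone. The exceptions were HSP70_PEQU_03033 and HSP70_PEQU_21700, whose contigs also had the lowest alignment bit scores given by the authors. These were 1483 and 1358, against 3304 to 4826 for the rest, where a longer and closer match scores higher. The identity of the other contigs in these components is not given in the tables used here, and whether they belong to the same gene was not tested. HSP70 coding sequences are highly conserved, and how reads shared by near-identical copies were counted is not stated in the sources, so levels of single members are uncertain to that extent.

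The component of HSP70_PEQU_03033 held 1 further contig, c144179_g1_i1, at 144 FPKM in root and 165 in stem, with 423 in leaf and 306 in flower. It was above the matched contig in each library, by 1.66, 1.40, 1.35 and 1.81 times, and as deposited was likewise highest in leaf and lowest in root. With median-of-ratios factors it was highest in flower, at 352 against 275 in leaf, and it was also highest there in both settings of equal sums. The component of HSP70_PEQU_21700 held 3 more. Contig c145737_g3_i2 stood at 69.9 FPKM in root and 221 in stem, with 438 in leaf and 328 in flower, between 0.454 and 0.602 times the matched contig. Contig c145737_g1_i1 stood at 32.8 FPKM in root and 145 in stem, with 578 in leaf and 277 in flower, and its ratio to the matched contig ranged from 0.213 in root to 0.727 in leaf. It thus followed the matched contig less closely, at a distance of 1.23 against 0.31 for c145737_g3_i2. With median-of-ratios factors c145737_g1_i1 remained highest in leaf, at 375 against 318 in flower, while c145737_g3_i2 was highest in flower, at 377 against 284 in leaf. The last, c145737_g3_i1, was listed at 0 in root and leaf and at 4.75 and 5.99 FPKM in stem and flower.

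**Figure D5:**
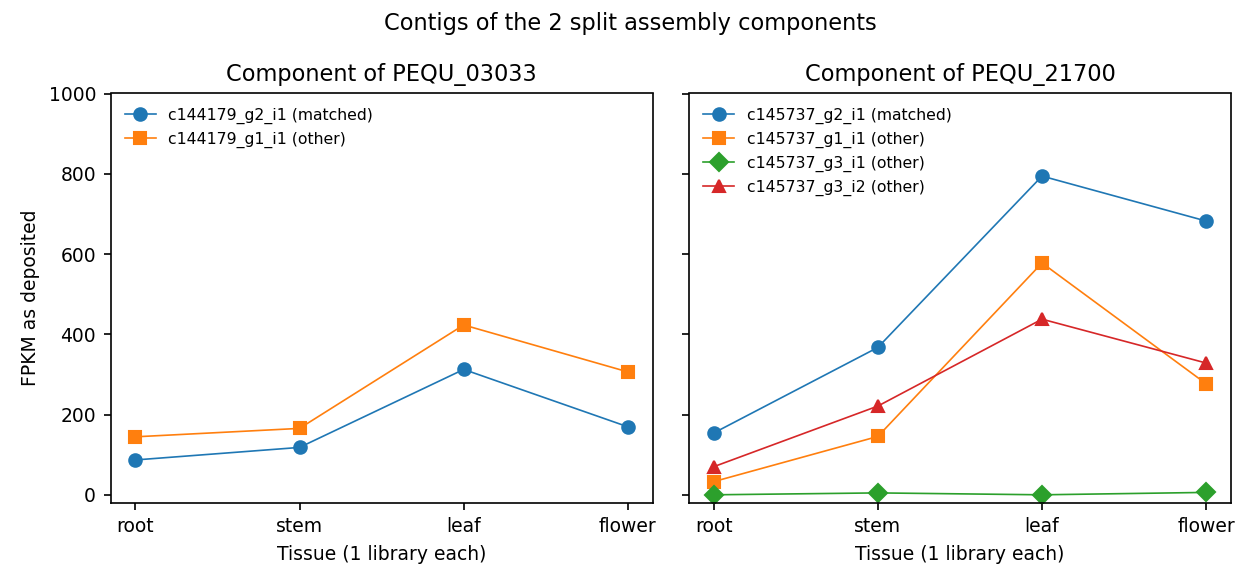
FPKM as deposited of every contig in the assembly components of HSP70_PEQU_03033 (left) and HSP70_PEQU_21700 (right) in the 4 tissues, 1 library each; blue marks the contig matched to the gene model. As deposited, the 3 abundant contigs on the right and both on the left peak in leaf and are least in root; with the sums without c157498 set equal all 5 peak in flower.

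Set beside the other chaperone families of the table, HSP70 was the most unequal in its make-up. The highest member held 33.4% to 43.8% of the sum in HSP20 and 40.9% to 54.4% in HSP90, against 66.3% to 92.9% in HSP70. This rested on 1 contig. Without HSP70_PEQU_18080 the highest HSP70 member held 35.6% to 55.2%, near the range of HSP90. The summed HSP70 level was 6.62 times that of HSP90 in root and 4.33 in stem, with 9.01 in leaf and 3.29 in flower. Without HSP70_PEQU_18080 the ratio was 0.471 in root and 0.80 in stem, with 0.824 in leaf and 1.11 in flower, so the order of the tissues changed and flower came first. The 13 HSP20 contigs summed to 1.92% of HSP70 in root and 4.28% in stem, with 2.19% in leaf and 27.5% in flower. The median of flower minus root on the log2 scale was 1.04 for HSP70, 0.16 for HSP90 and 2.93 for HSP20. At least 2-fold higher in flower than in root were 4 of 8 HSP70, 2 of 6 HSP90 and 13 of 13 HSP20 contigs, and as deposited no contig of the 3 families passed in the opposite direction.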

How the data were processed

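Values are FPKM that the authors computed, per the file headers, for contigs assembled with Trinity, per the series' design text. The mapper, the FPKM estimator and the length it used are not stated in these sources; edgeR and DESeq are named without a role in the submitters' processing notes. The heat shock table deposited by the authors also gives an alignment bit score, a score per match of gene model and contig. Columns were assigned by the tissue in the header. The tables give no read totals, so depth is unknown and no counting interval is printed; the smallest leaf value above 0 was 0.128 FPKM, against 0.006 to 0.007 in the other libraries.

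FPKM values are not counts, and no test was possible with 1 library per tissue. Differences used log2(FPKM + 1), a threshold of 2-fold, and contigs averaging 1 FPKM or more as background. The background of at least 20 was added after seeing the data. Both averages were taken over the 4 tissues as deposited, leaf included, under every scaling. Fold changes on this scale understate those of low contigs. Median-of-ratios factors came from contigs at 1 FPKM or more in all 4 tissues. All 8 members are named, and for each the closest contig of the heat shock table and of all contigs. Members, lists and rules were chosen with earlier results of these data known. Python 3.11.15, pandas 2.3.3 and numpy 2.4.6 were used. The R gene table was not used.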

Additional observations from a re-analysis of the deposited data

How the results depend on the processing

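Of 207 values recomputed under another setting, at least 63 could not change for these members, such as sums over a Trinity gene with a single contig. Of the other 144, 103 kept their direction and stayed within 1.5 times, 38 moved further and 3 reversed. The 103 include flower minus root with component contigs summed for members alone in their component, which could not change either. The cause was not tested except where the setting itself shows it. The members highest in leaf, 4 as deposited, were 2 with median-of-ratios factors, 0 with summed FPKM set equal and 1 with the sums without c157498 set equal, a setting added after seeing the data. The members highest in flower, 4 as deposited, were 7 with either setting of equal sums and 7 with the leaf library left out, and 1 was highest in root with all sums equal or without leaf. Members at least 2-fold apart numbered 2 for root and stem, 3 for root and leaf, 4 for root and flower, 3 for stem and leaf, 1 for stem and flower and 2 for leaf and flower. At 4-fold these counts were 0, 1, 2, 1, 0 and 1. With all sums set equal root and leaf gave 7, stem and leaf 8 and leaf and flower 8, in each case lower in leaf. The median contig averaging 20 FPKM or more then passed 2-fold as well. It lay at -1.52 for leaf minus root, -2.07 for leaf minus stem and 2.22 for flower minus leaf. Root and leaf gave 5 with a pseudocount of 0.1, and leaf and flower gave 4 with median-of-ratios factors, or 6 with the sums without c157498 set equal. Shares of all contigs at 4-fold, at this pseudocount and at these scalings are not given, so these counts are not read against a background. The family sum in leaf over root, 1.37 in log2 units, was 0.51 with median-of-ratios factors, 0.42 with the sums without c157498 set equal and -1.63 with all sums equal, a reversal. Without HSP70_PEQU_18080 the sum in stem over root went from -0.49 to 0.88 and that in flower over root from -0.51 to 1.73.

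Leaving out HSP70_PEQU_18080, the share of HSP70_PEQU_21700 was 35.6% in root and 46.0% in stem, with 55.2% in leaf and 47.5% in flower. With the contigs of each component summed, also added later, it was 4.06%, 15.2%, 10.5% and 24.9% of all 8. In place of 100% of its Trinity gene, the matched contig held 37.5%, 41.6%, 42.5% and 35.6% of the component of HSP70_PEQU_03033 in root, stem, leaf and flower, and 59.97%, 49.7%, 43.9% and 52.8% of that of HSP70_PEQU_21700. Flower minus root kept its sign and moved less than 1.5 times for each of the 8 members under every setting run. No paired analysis was possible because each tissue has 1 library.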

Other observations

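Contigs outside the heat shock table with profiles like those of single members were looked up by the same distance over the 4 tissues, among 86757 contigs averaging 1 FPKM or more. For HSP70_PEQU_02517, the closest was c152960_g1_i1 at a distance of 0.04, with 52.1 FPKM in root and 120 in stem, with 106 in leaf and 318 in flower. Its level was thus also near that of the member. For this profile, 175 contigs, 0.202%, lay within 0.5 log2 units, the fewest of the 8 members. For HSP70_PEQU_17275, the closest was c150654_g3_i1 at 0.04, with 15.5 FPKM in root and 31.1 in stem, with 24.9 in leaf and 34.7 in flower. For HSP70_PEQU_36873 it was c151294_g2_i2 at 0.04, with 10.1 FPKM in root and in stem, 8.33 in leaf and 11.8 in flower. The closest contigs of the other 5 members were at most at 15.2 FPKM in any library, and lay at distances of 0.01 for HSP70_PEQU_03033 (c149377_g1_i3), 0.03 for HSP70_PEQU_15134 (c148504_g2_i1), 0.05 for HSP70_PEQU_18080 (c205861_g1_i1), 0.03 for HSP70_PEQU_21700 (c154634_g3_i1) and 0.02 for HSP70_PEQU_38972 (c140965_g2_i1). At such low levels the added 1 narrows differences, so a small distance need not mean a like profile in plain FPKM. Contig c154634_g3_i1 was at 0 FPKM in root, where HSP70_PEQU_21700 was at 154. Contig c205861_g1_i1 stood at 5.08 FPKM in leaf and 0.241 in flower, where HSP70_PEQU_18080 stood at 14278 and 2829. The same limit applies to the low contigs among those counted within 0.5 log2 units. The profile of HSP70_PEQU_38972 was shared most widely, with 3920 contigs within 0.5 log2 units, 4.52% of those searched. The tables used here pair none of these contigs with a gene name.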
